A study of Mus musculus with 18 samples.

Results

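Whole-kidney RNA taken 1 day after a folic acid injection was compared with RNA from untreated kidney, over every gene with enough reads to be tested. The comparison uses 6 of the study's 18 libraries, 3 labelled day 1 and 3 labelled untreated, and they were chosen by their labels alone. All mice were male Balb/c, with no age given, and a weight of 25 to 29 g is recorded for the mice given folic acid. The day 1 mice had received 250 mg/kg folic acid in 0.3 M sodium bicarbonate as 1 intraperitoneal injection. No treatment is given for the untreated mice and no group labelled as given bicarbonate alone was used, so folic acid and its vehicle cannot be told apart. The labels do not say that each library came from a different animal, so p-values reflect only how far these samples spread, which may be technical.

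Folic acid at a high dose reaches the urine at concentrations that injure the cells lining the renal tubule, and it is widely used in mice as a model of acute kidney injury that is followed by scarring. The proximal tubule carries out most reabsorption, makes glucose and breaks down amino acids and fatty acids, and it depends on mitochondria and peroxisomes for this. Injured tubule cells are known to lose these functions, to flatten and remodel their cytoskeleton, and to secrete inflammatory and acute phase proteins. In whole-kidney RNA, fewer cells of a type and less RNA per cell cannot be told apart.

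Reads assigned to genes numbered 23071977, 47298495 and 22182370 in the untreated libraries and 26889894, 49923703 and 54613262 at day 1. The mitochondrial genome accounted for 69.2 to 75.6% of those reads in untreated kidney and for 68.5 to 69.8% at day 1. Among all other genes, the 10 most abundant held 19.3 to 21.1% of reads in untreated kidney and 26.6 to 29.9% at day 1, with no overlap between the groups. That difference had an exact two-sided permutation p of 0.1, which is the smallest value 3 against 3 libraries can give. Levels are in CPM, counts per 1000000 gene reads after trimmed-mean scaling, and are printed for replicates 1, 2 and 3 in that order. Reads with several alignments belong to no gene in these tables, which makes the levels of tubulins, ribosomal proteins, serum amyloids, many cytochromes P450 and other closely copied genes uncertain. Reads are not independent molecules, and lower bounds and count ratios given below cover counting error only.

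Of 16824 genes tested, 1792 (10.7%) differed between day 1 and untreated kidney at a Benjamini-Hochberg adjusted p under 0.05 in edgeR's quasi-likelihood test, which is the test behind every adjusted p below. Of these, 857 (5.09%) were higher and 935 (5.56%) were lower at day 1. The change was 2-fold or more for 790 of the higher and 873 of the lower genes, and 8-fold or more for 205 and 245. The median log2 fold change was 1.98 among the higher genes, -2.03 among the lower genes and 0.05 over all genes tested. In 1739 of the called genes the 6 libraries did not overlap, against 31.1% of all genes tested. Fits that left out 1 library at a time called 787 genes in all 6 cases, 356 higher and 431 lower. The count of called genes was 1190 without untreated replicate 1 and also without untreated replicate 2, and 1164 without day 1 replicate 2. The higher genes numbered 482, 521 and 502 without untreated replicates 1, 2 and 3, and the lower genes 620 and 537 without day 1 replicates 1 and 2.

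Abundant genes were called more often than scarce ones. Among the 411 genes with a mean above 100 CPM, 49.1% were called, 66 higher and 136 lower. The share was 17.4% from 10 to 100 CPM, 8.16% from 1 to 10 CPM and 3.31% under 1 CPM. Outside the mitochondrial genome, the 857 higher genes together held 4.39% of the mean CPM in untreated kidney and 16.9% at day 1. The 935 lower genes held 24.7% in untreated kidney and 7.50% at day 1. These shares describe the genes by the same values that called them and test nothing further.

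**Figure D1:**
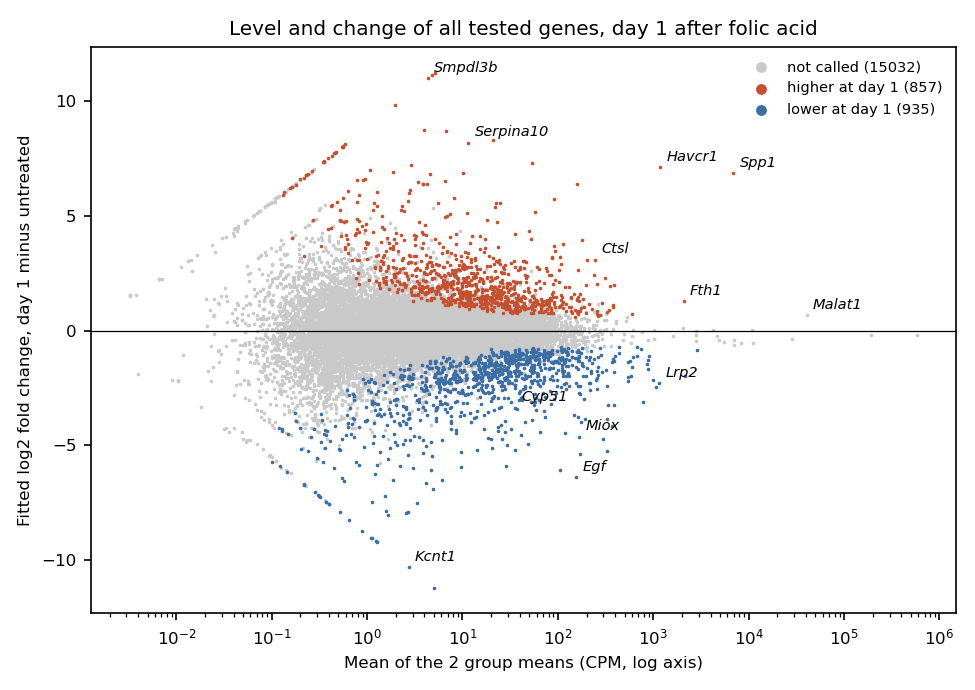
Fitted log2 fold change, day 1 minus untreated (vertical axis), against the mean of the group means in CPM (horizontal log axis), for the 16824 genes tested. Red points are the 857 genes called higher, blue points the 935 called lower and grey points all others, and the straight diagonal edges on the left are genes with no read in 1 of the groups.

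Some transcripts were detected in 1 group only. With at least 10 reads in each of 3 libraries of 1 group and no read in the other, 12 genes appeared at day 1, of which 11 were called, and 12 were absent at day 1, all called. Smpdl3b, a lipid phosphodiesterase of the plasma membrane, had no read in untreated kidney and measured 4.20, 16.8 and 5.07 CPM at day 1, where replicate 2 was highest. Its level was at least 222-fold higher, with a floor of 3 reads over the untreated group (adjusted p = 1.56e-05). Without day 1 replicate 2 its fitted log2 fold change was 10.05 (adjusted p = 3.44e-05). Serpina7, which encodes thyroxine-binding globulin, measured 4.55, 4.41 and 2.72 CPM at day 1 and was at least 99.2-fold higher (adjusted p = 0.000205). Egr2, an early growth response transcription factor, stood at 0.962, 0.720 and 0.676 CPM and was at least 20.03-fold higher (adjusted p = 0.00320).

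Among transcripts lost at day 1 were genes of ion channels and of arachidonic acid metabolism. Kcnt1, a sodium-activated potassium channel gene, measured 4.08, 5.23 and 7.01 CPM in untreated kidney and had no read at day 1. It was at least 213-fold lower (adjusted p = 0.000537). Kcng1, a modifying subunit of voltage-gated potassium channels, measured 2.066, 1.67 and 2.94 CPM in untreated kidney and had no read at day 1, at least 87.3-fold lower (adjusted p = 0.00131). Cyp2j7, of a cytochrome P450 subfamily that oxidises fatty acids, measured 1.96, 3.88 and 1.82 CPM and was at least 100-fold lower (adjusted p = 0.000378). Its relatives in the Cyp2j cluster are close in sequence, so its count is uncertain.

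Among called genes outside the mitochondrial genome, the 10 largest gains in CPM included secreted, lysosomal and iron-handling gene products. Spp1, the secreted phosphoprotein osteopontin, went from 98.3, 131 and 121 CPM to 16430, 12040 and 12630 CPM (log2 fold change 6.88, SE 0.53, adjusted p = 2.26e-07). At day 1 its lowest library, replicate 2, was far above the highest untreated one. Fth1, the heavy chain of the iron store ferritin, measured 1001, 1035 and 1626 CPM in untreated kidney and 3485, 2061 and 3299 CPM at day 1, and rose 2.42-fold (log2 fold change 1.27, SE 0.28, adjusted p = 0.00545). Steap2, a metalloreductase that acts on iron and copper, measured 104 ± 17.4 CPM (SD, n = 3) in untreated kidney and 517 ± 75.2 CPM at day 1, and rose 4.96-fold (adjusted p = 2.67e-06). The lysosomal proteases moved in the same direction: Ctsl went from 48.4, 53.9 and 51.5 CPM to 458, 409 and 447 CPM (log2 fold change 3.10, SE 0.24, adjusted p = 2.26e-07) and Ctsb from 134, 182 and 151 CPM to 605, 666 and 576 CPM (adjusted p = 0.000308). Outside those 10, Plin2, which coats lipid droplets, rose 52.7-fold, from 4.404, 2.28 and 3.57 CPM to 183, 237 and 117 CPM (adjusted p = 6.38e-07). Tsc22d1, a leucine zipper transcription regulator and 1 of the 10, rose 8.42-fold, from 37.9, 38.8 and 52.9 CPM to 426, 356 and 311 CPM (adjusted p = 1.04e-05), and neither gene's groups overlapped.

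Among called genes outside the mitochondrial genome, the 10 largest losses in CPM included genes of the proximal tubule surface and of its metabolism. Lrp2, the endocytic receptor megalin, measured 2180, 1821 and 1748 CPM in untreated kidney and 388, 399 and 401 CPM at day 1, and fell 4.84-fold (log2 fold change -2.27, SE 0.24, adjusted p = 7.89e-06). The 3 day 1 libraries lay close together. Acsm2, a medium-chain acyl-CoA synthetase, fell 5.47-fold from 1893, 1607 and 1895 CPM to 319, 365 and 303 CPM (adjusted p = 0.000173). Fut9, a fucosyltransferase that builds the Lewis X sugar, fell 3.98-fold from 923, 856 and 1017 CPM to 227, 205 and 272 CPM (adjusted p = 0.000207). Cyp4b1, a fatty acid hydroxylase, fell 4.51-fold from 869.7, 878 and 893 CPM to 209, 181 and 195 CPM (adjusted p = 0.000176). In none of these genes did a day 1 library reach an untreated one.

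Of the gene lists examined, genes of NF-kappaB signalling, cytokines and the acute phase had the largest share of higher calls. Of 51 tested, 34 were higher, 1 was lower and 16 were not called, with a median log2 fold change of 2.96, against 5.09% higher and a median of 0.05 over all genes. The 3 chains of fibrinogen, the clotting protein that the liver makes in the acute phase, were all among the higher genes. Fga measured 2.72, 4.30 and 2.38 CPM in untreated kidney and 164, 71.5 and 103 CPM at day 1, and rose 35.6-fold (log2 fold change 5.15, SE 0.59, adjusted p = 1.73e-05). Fgg went from 1.14, 0.808 and 1.13 CPM to 63.1, 31.2 and 35.1 CPM (log2 fold change 5.40, SE 0.73, adjusted p = 8.83e-05). No untreated library held a read of Fgb, which stood at 10.2, 15.7 and 5.03 CPM, at least 263-fold higher (adjusted p = 0.000761). Per kilobase of annotated exon the day 1 means were 37.6 CPM for Fga, 20.6 for Fgg and 2.71 for Fgb. For all 3 chains day 1 replicate 1 or 2 was highest and no untreated library came near the lowest day 1 value.

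Complement and chemokine genes of the same list had separated groups as well. C3, the central complement protein, rose 84.8-fold, from 3.04, 4.02 and 3.88 CPM to 377, 259.8 and 295 CPM (adjusted p = 2.67e-06). Cxcl1, a chemokine that attracts neutrophils, measured 0.163, 0.262 and 0 CPM in untreated kidney and 28.6, 13.8 and 18.5 CPM at day 1, with a log2 fold change of 6.90 that was 7.81 without untreated replicate 2 (adjusted p = 4.45e-05 with all libraries). Birc3, an NF-kappaB target that inhibits cell death, rose 6.37-fold, from 4.51, 3.23 and 4.76 CPM to 42.0, 18.7 and 18.7 CPM (adjusted p = 0.000903). Sod2, the mitochondrial superoxide dismutase and an NF-kappaB target in many cells, was the list's lower gene. It fell 2.35-fold, from 106, 80.9 and 83.1 CPM to 36.4, 38.2 and 40.2 CPM (adjusted p = 0.00232).

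The promoter letters of a few of these genes show what was searched in all tested promoters. The windows below are the 250 bases before the start site as RefSeq gives it (build GRCm38.p6), written on the strand of the gene. They are shown for the 3 fibrinogen genes, which neighbour each other and rose together, for Cxcl1, and for Aadat, an aminotransferase of lysine and tryptophan breakdown that was lower at day 1 and was picked after its value and its motif were seen. Capitals mark matches on either strand to TTCNNNGAA, the form bound by STAT factors, in the fibrinogen genes, to the NF-kappaB form in Cxcl1, where overlapping matches run together, and to CAAAGTCCA, a form bound by HNF4, in Aadat. Fga lies on the plus strand at chr3:83025903-83026152, Fgb on the minus strand at chr3:83049864-83050113 and Fgg on the plus strand at chr3:83007474-83007723. Cxcl1 lies on the plus strand at chr5:90890995-90891244 and Aadat on the plus strand at chr8:60505874-60506123.
Fga: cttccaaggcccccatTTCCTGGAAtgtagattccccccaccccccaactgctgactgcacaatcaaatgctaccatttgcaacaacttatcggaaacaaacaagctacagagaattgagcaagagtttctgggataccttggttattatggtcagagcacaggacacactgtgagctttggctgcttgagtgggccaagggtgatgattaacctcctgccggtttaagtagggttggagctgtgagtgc
Fgb: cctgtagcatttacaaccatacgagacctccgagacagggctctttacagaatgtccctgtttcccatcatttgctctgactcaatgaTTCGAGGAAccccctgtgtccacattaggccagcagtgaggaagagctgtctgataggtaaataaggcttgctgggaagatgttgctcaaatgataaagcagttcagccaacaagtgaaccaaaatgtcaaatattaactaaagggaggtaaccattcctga
Fgg: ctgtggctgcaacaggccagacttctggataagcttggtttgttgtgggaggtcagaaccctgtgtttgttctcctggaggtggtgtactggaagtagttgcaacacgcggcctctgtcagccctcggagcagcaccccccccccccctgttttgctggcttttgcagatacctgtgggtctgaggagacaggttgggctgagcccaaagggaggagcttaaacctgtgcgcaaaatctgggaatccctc
Cxcl1: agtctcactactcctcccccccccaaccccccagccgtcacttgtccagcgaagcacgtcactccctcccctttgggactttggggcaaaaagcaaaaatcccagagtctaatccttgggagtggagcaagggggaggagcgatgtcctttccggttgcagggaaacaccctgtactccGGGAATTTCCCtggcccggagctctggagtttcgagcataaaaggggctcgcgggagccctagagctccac
Aadat: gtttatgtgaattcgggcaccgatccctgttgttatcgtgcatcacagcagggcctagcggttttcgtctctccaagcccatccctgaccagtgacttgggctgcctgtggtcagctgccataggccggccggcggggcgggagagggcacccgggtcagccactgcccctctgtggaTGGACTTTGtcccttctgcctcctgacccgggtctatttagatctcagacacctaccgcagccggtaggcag

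Fga and Fgb each held 1 STAT match, and the Fgg window held no match. Aadat measured 133, 97.3 and 94.8 CPM in untreated kidney and 15.7, 5.87 and 8.11 CPM at day 1 (log2 fold change -3.46, SE 0.54, adjusted p = 0.000326). Across all windows of 300 bases around the starts of tested genes, the STAT and NF-kappaB shares differed little between the groups of genes. RefSeq windows were found for 652 of the 857 higher genes, 708 of the 935 lower genes and 11598 of the tested genes, some with several starts. The STAT form was in 6.65% of windows of higher genes, 5.44% of lower and 6.96% of all tested. The NF-kappaB form was in 11.4%, 10.2% and 10.3%. The widest gap among common motifs was for TGACNNNGC, a form bound by NRF2, in 17.8% of windows of higher genes, 10.9% of lower and 14.0% of all tested. CAAAGTCCA was rare, in 3 of 842 windows of higher genes, 13 of 900 of lower genes and 67 of 14805 of all tested. The median GC content was 60.3%, 57.7% and 59.7%. Windows of 1 gene overlap and motifs share letters, so these shares are descriptions with no test, and a match is not a binding site.

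Cytoskeleton genes were higher across several structural classes. In the actin list, 26 of 58 tested genes were higher and 0 were lower, with a median log2 fold change of 1.05. Tagln2, an actin-bundling protein, measured 22.7, 21.0 and 17.8 CPM in untreated kidney and 144, 201 and 224 CPM at day 1, and rose 9.26-fold (log2 fold change 3.21, SE 0.32, adjusted p = 3.59e-06). Msn, the membrane-to-actin linker moesin, rose 5.42-fold, from 64.3, 76.8 and 84.2 CPM to 420.4, 470.4 and 331 CPM (adjusted p = 6.79e-06). Tmsb10, which binds actin monomers, rose 20.03-fold, from 0.217, 0.309 and 0.564 CPM to 5.38, 5.51 and 10.7 CPM (adjusted p = 4.97e-05). Capg and Pdlim7, an actin-capping protein and an actin-associated adaptor, rose 12.4-fold and 11.1-fold (adjusted p = 0.000199 and 0.000580). Cd2ap, an adaptor between membrane proteins and actin that the podocyte slit diaphragm needs, was also among the 10 largest gains in CPM of called genes. It went from 99.98, 94.0 and 109.9 CPM to 325, 527 and 397 CPM (adjusted p = 5.23e-06).

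Microtubule genes gave 9 higher and 0 lower of 18 tested, and 7 of 11 tubulin genes were higher. Tubb5, a widely used beta tubulin, went from 7.39, 11.3 and 8.39 CPM to 72.9, 63.8 and 51.1 CPM (log2 fold change 2.79, SE 0.35, adjusted p = 5.27e-05). Tuba1b, an alpha tubulin, went from 4.95, 9.32 and 7.39 CPM to 43.6, 32.5 and 52.6 CPM, and Tubb2b from 0.707, 0.975 and 0.940 CPM to 10.2, 5.78 and 8.93 CPM (adjusted p = 0.000180 and 0.000588). The lowest day 1 library was above the highest untreated one in each of these 3 genes. Of 12 keratin and other intermediate filament genes, 4 were higher and 0 lower. Vim, the filament protein vimentin, rose 4.49-fold, from 4.68, 3.83 and 2.69 CPM to 18.02, 16.4 and 15.99 CPM (adjusted p = 0.00189). Krt8, a keratin of simple epithelia, rose 4.42-fold, from 5.87, 4.52 and 6.20 CPM to 31.8, 22.6 and 18.8 CPM (adjusted p = 0.00303). Krt20, a keratin of gut and urothelium, measured 0.109, 0.238 and 0 CPM in untreated kidney and 27.5, 4.27 and 7.66 CPM at day 1 (log2 fold change 6.52, adjusted p = 0.00323), and its log2 fold change was 5.39 without day 1 replicate 1 and 7.72 without untreated replicate 2.

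Calcium-binding annexins and S100 proteins gave 7 higher and 1 lower of 21. Anxa2, an annexin that links membranes to actin, rose 9.45-fold, from 3.26, 4.71 and 2.94 CPM to 36.3, 32.3 and 35.3 CPM (log2 fold change 3.24, SE 0.30, adjusted p = 1.81e-06). S100a6 and S100a11 rose 8.55-fold and 6.65-fold (adjusted p = 8.88e-05 and 0.000213). The lower gene was S100g, calbindin-D9k, a calcium buffer of transporting epithelia, which fell 7.93-fold from 183, 113 and 186 CPM to 25.0, 13.5 and 22.2 CPM (adjusted p = 0.000886). Among junction, adhesion and matrix-turnover genes, 14 of 49 were higher and 2 lower. Cd44, the hyaluronan receptor, measured 0.544, 0.595 and 0.752 CPM in untreated kidney and 25.8, 11.8 and 27.8 CPM at day 1, and rose 34.7-fold (log2 fold change 5.12, SE 0.67, adjusted p = 6.71e-05). Adamts1, a protease that cuts proteoglycans, rose 9.41-fold, from 26.6, 12.1 and 11.5 CPM to 202, 139 and 131 CPM (adjusted p = 6.62e-05). The lower genes of that list were Cldn10 and Cldn8, tight junction claudins of the thick ascending limb and of the distal nephron, which fell 5.55-fold and 3.24-fold (adjusted p = 4.75e-05 and 0.00463).

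Protease inhibitors of the serpin family gave 6 higher and 0 lower of 26 tested. Serpina10, an inhibitor of clotting factors, measured 0.0544, 0.119 and 0 CPM in untreated kidney and 25.4, 17.8 and 25.6 CPM at day 1, with no overlap. Its log2 fold change was 8.20 (SE 0.62, adjusted p = 2.26e-07), and 9.42 without untreated replicate 2.

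**Figure D2:**
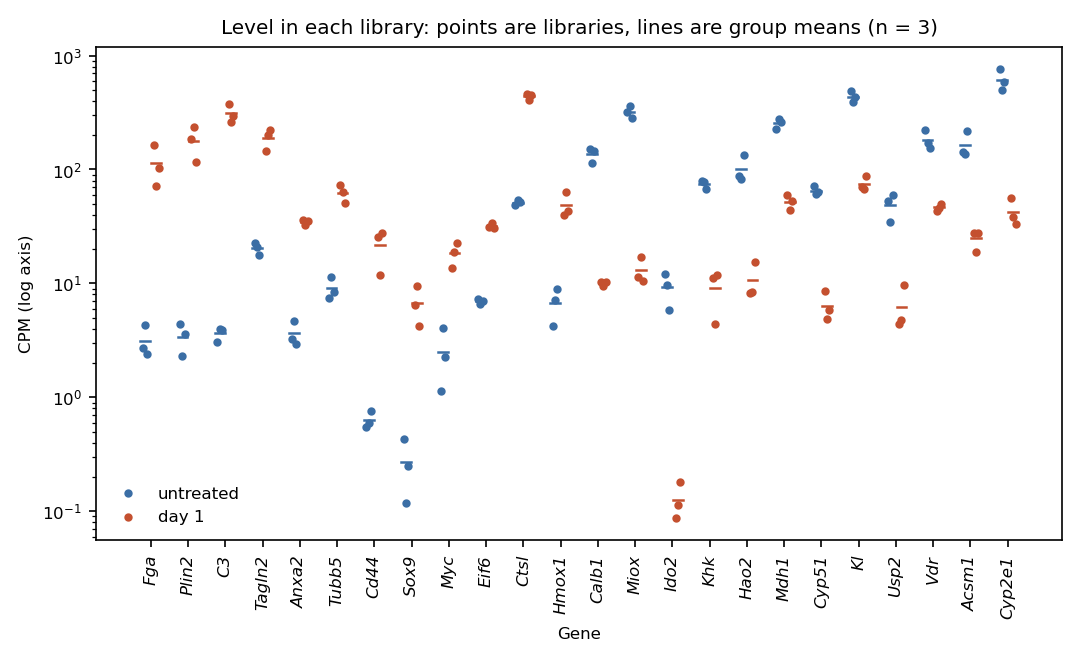
CPM on a log axis in each of the 6 libraries for 24 of the named genes, with untreated libraries in blue and day 1 libraries in red. Points are libraries and short lines are group means, and for all 24 genes the blue and red points do not overlap.

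Called genes of cytosolic protein synthesis were all higher, while edgeR called no proteasome gene. Of 78 cytosolic ribosomal protein genes, 18 were higher and 0 lower, with a median log2 fold change of 0.65. Translation factors gave 11 higher and 0 lower of 45, and cytosolic tRNA synthetases gave 5 higher and 0 lower of 22. By contrast, 1 of 75 mitochondrial ribosomal protein genes was higher and 0 were lower, with a median of -0.22, and 0 were higher in each fit without 1 untreated library or without day 1 replicate 1. None of 37 proteasome genes was called by edgeR, with a median of 0.34 and 5 at an unadjusted p under 0.05, and DESeq2 and limma-voom each called 1. Without untreated replicates 1, 2 and 3 and day 1 replicates 1 and 3, the ribosomal count was 6, 9, 9, 10 and 10, and the translation factor count was 6, 6, 5, 7 and 6. The synthetase count was 1, 2 and 2 without untreated replicates 1, 2 and 3, and 3 and 2 without day 1 replicates 2 and 3.

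Regulators of translation were among the higher genes. Eif6, which controls the joining of ribosomal subunits, measured 7.34, 6.66 and 7.08 CPM in untreated kidney and 31.5, 33.8 and 30.5 CPM at day 1, and rose 4.55-fold (log2 fold change 2.19, SE 0.33, adjusted p = 0.000225). Eif4ebp1, a repressor of cap-dependent initiation, rose 6.16-fold, from 0.979, 1.52 and 1.38 CPM to 6.78, 10.2 and 7.08 CPM (adjusted p = 0.000796). Iars, the isoleucine tRNA synthetase, rose 2.71-fold (adjusted p = 0.00511). Myc, a transcription factor that drives ribosome production, went from 1.14, 4.09 and 2.25 CPM to 13.7, 18.9 and 22.7 CPM (log2 fold change 2.86, SE 0.53, adjusted p = 0.00163). Gas5, a noncoding host of small nucleolar RNAs, was the called member of 15 tested long noncoding RNAs and rose 3.40-fold, from 16.5, 12.5 and 13.1 CPM to 54.5, 43.8 and 44.6 CPM (adjusted p = 0.000283). In all of these genes the lowest day 1 value exceeded the highest untreated value.

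DNA replication and nucleotide synthesis genes were higher where they were called. Of 41 replication genes, 11 were higher and 0 lower, and of 32 mitosis genes, 7 were higher and 0 lower. Without untreated replicates 1, 2 and 3 and day 1 replicate 1 the replication count was 3, 7, 5 and 4. Without untreated replicates 2 and 3 and day 1 replicate 1 the mitosis count was 4, 3 and 2, and limma-voom gave 4 replication and 3 mitosis genes. Uhrf1, which keeps DNA methylation through replication, measured 0.272, 0.285 and 0.501 CPM in untreated kidney and 7.96, 3.76 and 6.84 CPM at day 1, and rose 17.7-fold (log2 fold change 4.15, SE 0.52, adjusted p = 4.97e-05). Among polyamine and nucleotide genes, 7 of 35 were higher and 1 was lower, or 0 lower without untreated replicate 1 or 3 or day 1 replicate 1 or 2. Ctps, the cytidine triphosphate synthase, rose 7.00-fold, from 4.62, 3.45 and 2.38 CPM to 20.9, 27.2 and 25.1 CPM (adjusted p = 0.00136).

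Immediate early genes, which are switched on within minutes of a stimulus, gave 13 higher and 0 lower of 38, or 8 higher without untreated replicate 3. Ccn1, a matricellular protein made in response to serum and stretch, rose 17.6-fold, from 1.14, 1.93 and 1.75 CPM to 18.9, 35.8 and 31.1 CPM (adjusted p = 0.00327). Dusp5, a phosphatase of ERK kinases, measured 0.217, 0.0951 and 0.0626 CPM in untreated kidney and 0.306, 2.70 and 2.52 CPM at day 1 (adjusted p = 0.00726), and its lowest day 1 library lay just above the highest untreated one. In the p53 target list 6 of 30 were higher and 0 lower. Gdf15, a secreted stress cytokine, rose 9.62-fold, from 0.489, 0.880 and 0.439 CPM to 4.99, 6.66 and 6.34 CPM (adjusted p = 0.00282). Psrc1, a spindle protein, had 3 reads over the untreated group and 162 at day 1, a ratio of 38.0 per gene read with a 95% counting interval (exact Clopper-Pearson) of 12.8 to 186 (adjusted p = 0.00614). Cdkn1a, the cell cycle inhibitor p21 and a main p53 target, was not called, at 6.52, 1.83 and 1.38 CPM in untreated kidney and 11.2, 12.2 and 11.8 CPM at day 1 (adjusted p = 0.0935). For Cdkn1a the highest untreated library, replicate 1, was below all 3 day 1 libraries.

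Stress defence genes were split. Of 38 antioxidant genes, 10 were higher and 7 lower, or 4 lower without untreated replicate 3 and 4 lower without day 1 replicate 2. Hmox1, the heme-degrading oxygenase, rose 7.22-fold, from 4.24, 7.13 and 8.96 CPM to 39.98, 63.4 and 43.4 CPM (log2 fold change 2.85, SE 0.50, adjusted p = 0.000938). Pgd, of the NADPH-producing pentose phosphate pathway, rose 3.58-fold, from 12.7, 13.4 and 15.8 CPM to 42.5, 61.6 and 45.6 CPM (adjusted p = 0.000134). The metallothionein gene Mt2 and the glutathione S-transferase gene Gsta2 rose 5.08-fold and 6.87-fold (adjusted p = 0.00119 and 0.00150). Going the other way, Sod1, the cytosolic superoxide dismutase, fell 2.58-fold, from 125, 147 and 144 CPM to 53.9, 49.3 and 57.6 CPM, and Gss, glutathione synthetase, fell 2.46-fold (adjusted p = 0.00869 and 0.00174). Gpx3, the plasma glutathione peroxidase that kidney secretes, was among the most abundant transcripts and was not called, at 5690, 5841 and 4995 CPM and 5192, 3506 and 3834 CPM with overlapping groups (adjusted p = 0.347).

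Heat shock and chaperonin genes gave 5 higher and 1 lower of 37, or 16.2% called against 10.7% of all genes tested. The 3 fits without 1 untreated library and the fit without day 1 replicate 2 each left 3 higher, and the lower count ran from 0 to 2 over the 6 fits that left out a library. Hspb1 and Cryab, small heat shock proteins that bind intermediate filaments and actin, rose 6.53-fold and 4.17-fold (adjusted p = 0.00324 and 0.000811). Of 57 endoplasmic reticulum genes, 4 were higher and 2 lower, close to the share over all genes, or 2 higher and 1 lower without untreated replicate 1 or 3. Xbp1, a transcription factor of the unfolded protein response, rose 3.01-fold, from 41.3, 48.5 and 39.1 CPM to 131, 136 and 121 CPM (adjusted p = 0.000622). Herpud1, which helps to degrade misfolded proteins and is induced by the same response, fell 3.62-fold, from 54.3, 52.2 and 43.4 CPM to 14.4, 9.52 and 17.5 CPM (adjusted p = 0.000966). The lysosome list gave 6 higher and 2 lower of 46, or 1 lower without untreated replicate 1 or any 1 day 1 library. Lgmn, the lysosomal protease legumain, rose 2.73-fold, and Gabarapl1, an autophagosome protein, fell 3.03-fold (adjusted p = 0.000173 and 0.00536). In the cell death list 8 of 37 were higher and 0 lower, but the higher count was 4, 3 and 2 without untreated replicates 1, 2 and 3, and 3 and 5 without day 1 replicates 1 and 2. Acsl4, which loads membranes with the polyunsaturated fatty acids that ferroptosis oxidises, rose 4.398-fold, from 39.6, 40.7 and 34.0 CPM to 216, 151 and 135 CPM (adjusted p = 0.000136).

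**Figure D3:**
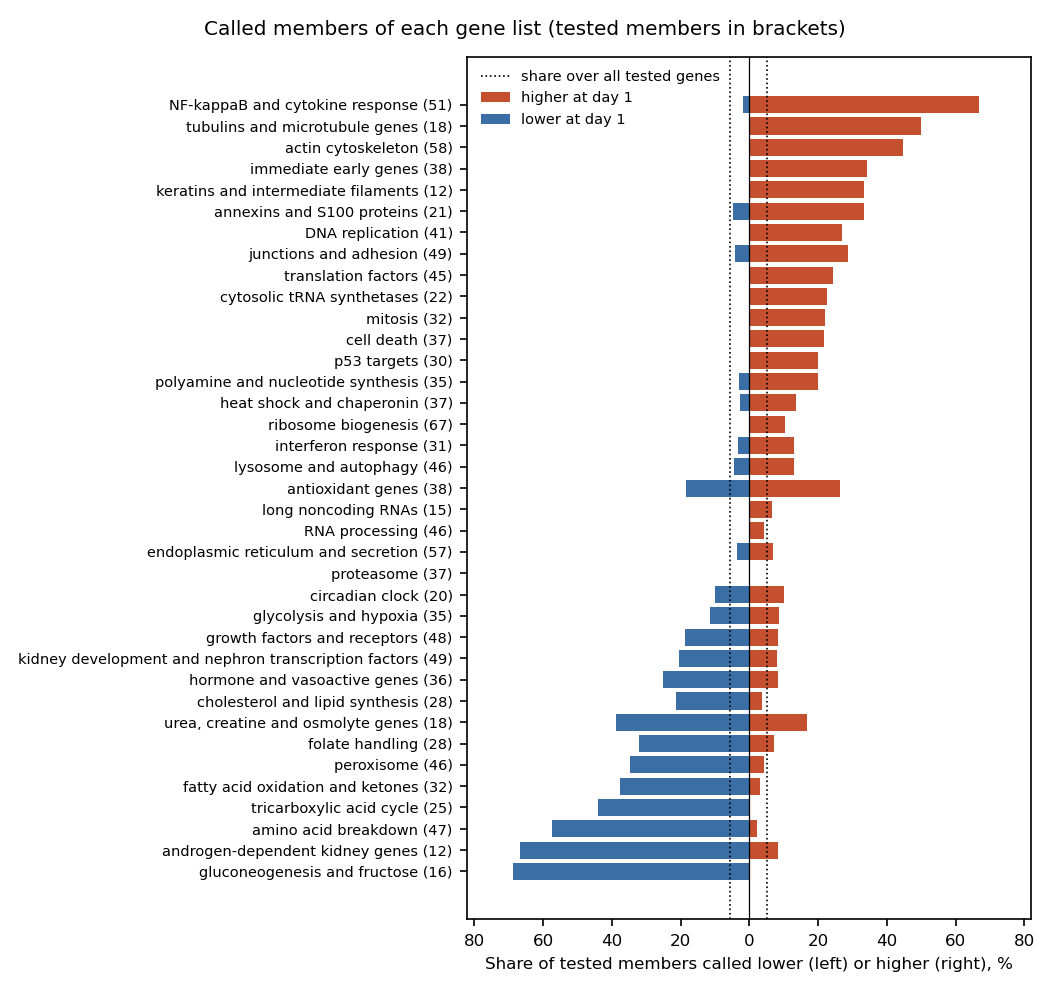
Share of tested members called higher (red, to the right) and lower (blue, to the left) in each of the response gene lists, in percent, with the number of tested members in brackets. Dotted lines mark the shares over all genes tested, 5.09% higher and 5.56% lower, and the lists run from NF-kappaB and cytokine genes at the top to gluconeogenesis and fructose genes at the bottom.

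Lists of fuel metabolism held many lower calls. Gluconeogenesis and fructose genes gave 0 higher and 11 lower of 16, with a median log2 fold change of -2.36. Khk, ketohexokinase, the first enzyme of fructose use, fell 8.25-fold, from 79.8, 77.6 and 67.2 CPM to 11.1, 4.41 and 11.8 CPM (log2 fold change -3.04, SE 0.39, adjusted p = 5.33e-05). Slc2a5, the fructose transporter, fell 13.3-fold, from 11.7, 22.9 and 18.3 CPM to 1.75, 0.810 and 1.43 CPM (adjusted p = 0.000129). Hk2, the inducible hexokinase of glycolysis, went the other way, from 0.109, 0.0951 and 0.0626 CPM to 0.962, 1.08 and 1.25 CPM (adjusted p = 0.00424), at a level near 1 CPM. The glycolysis and hypoxia list gave 3 higher and 4 lower of 35, with a median of -0.02 (20% called, against 10.7% of all genes tested). Fits that left out 1 library gave 2 to 3 higher and 2 to 4 lower. Gapdh, a glycolytic enzyme often used as a reference gene, was not called, with overlapping values of 318, 357 and 248.6 CPM and 343, 245 and 247 CPM (adjusted p = 0.765).

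Amino acid breakdown gave 27 lower and 1 higher of 47, with a median of -1.56, or 15 lower without day 1 replicate 2. Ido2, of the tryptophan to kynurenine step, fell 68.5-fold, from 12.2, 9.70 and 5.83 CPM to 0.0875, 0.113 and 0.179 CPM (log2 fold change -6.10, SE 0.86, adjusted p = 0.000127), and no day 1 library reached an untreated one. Miox, the inositol oxygenase of the proximal tubule, fell 24.6-fold, from 316, 360.1 and 283 CPM to 11.4, 17.1 and 10.6 CPM (log2 fold change -4.62, SE 0.35, adjusted p = 2.26e-07). Cbs, which channels homocysteine into cysteine, fell 5.28-fold (adjusted p = 0.000745). The methyltransferase gene Inmt, which methylates tryptamine and other small amines, fell 30.6-fold, from 96.2, 105 and 83.2 CPM to 2.67, 4.61 and 2.01 CPM (adjusted p = 0.000407).

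Peroxisome genes gave 16 lower and 2 higher of 46, or 10 lower without day 1 replicate 2. The higher count was 1 in each fit without 1 untreated library or without day 1 replicate 1 or 2. Hao2, a peroxisomal hydroxyacid oxidase, fell 9.40-fold, from 87.2, 81.8 and 133 CPM to 8.22, 8.37 and 15.4 CPM (log2 fold change -3.23, SE 0.42, adjusted p = 5.88e-05). Xdh, xanthine oxidoreductase of purine breakdown, was a higher member and rose 6.77-fold, from 3.10, 3.40 and 1.94 CPM to 18.02, 31.9 and 7.60 CPM (adjusted p = 0.00157). Of 32 genes of fatty acid oxidation and ketones, 12 were lower and 1, Acsl4, was higher. Bdh1, the ketone body dehydrogenase, fell 7.32-fold, from 47.6, 31.9 and 32.3 CPM to 6.04, 6.37 and 2.90 CPM (adjusted p = 9.71e-05).

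In mitochondria, 11 of 25 genes of the tricarboxylic acid cycle were lower and 0 higher, with a median of -0.86. Mdh1, the cytosolic malate dehydrogenase of the shuttle into mitochondria, fell 4.90-fold, from 227, 278 and 259 CPM to 59.2, 44.3 and 52.4 CPM (adjusted p = 0.000981). Of 37 nuclear genes of respiratory complex I, 13 were lower and 0 higher, with a median of -0.93. The cycle count was 5 and 7 without untreated replicates 2 and 3, and 7, 5 and 7 without day 1 replicates 1, 2 and 3. The complex I count was 8, 4 and 5 without untreated replicates 1, 2 and 3, and 5, 3 and 8 without day 1 replicates 1, 2 and 3. The summed level of the complex I genes was 948 to 1110 CPM in untreated kidney and 509 to 597 CPM at day 1, with no overlap. The mitochondrial genome itself had 2 lower and 0 higher calls among 32 tested genes, and 0 calls without untreated replicate 1 or 3 or day 1 replicate 2 or 3.

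Solute carriers, the largest family of membrane transporters, gave 72 lower and 17 higher of 325 tested. Without untreated replicates 1, 2 and 3 and day 1 replicates 1 and 2 the higher count was 7, 6, 9, 9 and 11, and the lower count was 44 without day 1 replicate 2. Slc5a12, the lactate transporter of the proximal tubule, fell 15.8-fold, from 328, 299 and 352 CPM to 26.8, 10.1 and 25.3 CPM (log2 fold change -3.98, SE 0.45, adjusted p = 1.56e-05). Slc13a1, the sulfate transporter, was a higher member, from 136, 138 and 166 CPM to 595, 480.4 and 623 CPM (adjusted p = 3.58e-05). Cytochrome P450 genes gave 10 lower and 2 higher of 47, and aldo-keto reductases 6 lower and 1 higher of 14. Cyp2e1, which oxidises ethanol and small toxicants, fell 14.3-fold, from 755, 499.7 and 580.1 CPM to 56.4, 38.4 and 33.1 CPM (log2 fold change -3.84, SE 0.37, adjusted p = 2.67e-06). Of 12 genes that depend on androgen in male mouse kidney, 8 were lower and 1 was higher, or 5 and 4 lower without day 1 replicates 2 and 3. The higher gene was Cyp4a12b, a fatty acid hydroxylase with a near-identical neighbour, which rose 6.40-fold, from 7.83, 8.63 and 5.83 CPM to 39.6, 57.4 and 46.0 CPM (adjusted p = 0.000907).

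Folate handling itself, the uptake and one-carbon use of the injected compound, gave 9 lower and 2 higher of 28, or 5 lower without untreated replicate 1, day 1 replicate 1 or day 1 replicate 2, and 1 higher in those fits. Folr1, the folate receptor of the proximal tubule brush border, was picked after its value was seen. It measured 95.4, 95.6 and 108 CPM in untreated kidney and 19.1, 22.3 and 24.6 CPM at day 1 (log2 fold change -2.18, SE 0.28, adjusted p = 5.88e-05). Mthfd2, the mitochondrial folate enzyme of proliferating cells, went from 0.272, 0.0238 and 0.0626 CPM to 1.09, 3.04 and 2.47 CPM (log2 fold change 4.29, adjusted p = 0.00116), and its log2 fold change was 5.74 and 3.65 without untreated replicates 1 and 2. The groups did not overlap in either gene.

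Cholesterol and lipid synthesis gave 6 lower and 1 higher of 28. Without untreated replicates 1 and 3 and day 1 replicates 1 and 2 the lower count was 3, 3, 3 and 2, and the higher gene, Sqle, was not called in any of the 6 fits that left out a library. Cyp51, the lanosterol demethylase, fell 10.2-fold, from 71.0, 61.0 and 63.6 CPM to 8.53, 4.84 and 5.79 CPM (log2 fold change -3.35, SE 0.46, adjusted p = 9.03e-05). Insig1, a sterol-sensing brake on the pathway and a target of the same transcription factors, fell 6.08-fold, from 9.24, 13.2 and 13.2 CPM to 1.49, 1.44 and 2.90 CPM (adjusted p = 0.00417).

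Genes of hormone action and growth factors held more lower than higher calls. Among 36 tested hormone and vasoactive genes, 9 were lower and 3 higher. Kl, the phosphate-regulating co-receptor klotho, fell 5.80-fold, from 487, 389 and 432 CPM to 70.3, 68.0 and 87.0 CPM (log2 fold change -2.54, SE 0.31, adjusted p = 3.53e-05). Vdr, the vitamin D receptor, fell 3.91-fold, from 220.3, 171 and 153 CPM to 43.6, 46.2 and 49.6 CPM (adjusted p = 8.49e-05). Ptger3, a prostaglandin receptor of the thick ascending limb, fell 6.45-fold (adjusted p = 0.000202). Of 48 growth factor genes, 9 were lower and 4 higher. Nrg1, a ligand of ErbB receptors, rose 4.70-fold, from 6.91, 3.97 and 5.95 CPM to 19.8, 32.8 and 26.2 CPM, and Egfr, the EGF receptor, rose 2.25-fold, from 37.6, 36.5 and 38.0 CPM to 79.5, 91.1 and 81.7 CPM (adjusted p = 0.00390 and 0.00662). Vegfa, the main endothelial growth factor, fell 2.38-fold, from 92.0, 84.0 and 75.3 CPM to 36.0, 37.2 and 32.4 CPM (adjusted p = 0.000451). In the circadian list of 20, 2 were higher and 2 lower, and fits that left out 1 library gave 1 to 3 higher and 1 to 2 lower. Bhlhe40, a clock repressor also induced by stress, rose 4.34-fold, and Usp2, a rhythmic ubiquitin protease, fell 7.74-fold, from 52.5, 34.2 and 59.2 CPM to 4.37, 4.77 and 9.64 CPM (adjusted p = 0.000242 and 6.11e-05). The hour of collection is not given in the labels, so its part was not tested.

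Transcription factors of kidney development and of the mature nephron gave 10 lower and 4 higher of 49, or 2 higher without untreated replicate 3. Sox9, a progenitor factor re-expressed in regenerating tubule, measured 0.435, 0.119 and 0.251 CPM in untreated kidney and 6.47, 9.47 and 4.24 CPM at day 1, and rose 26.5-fold (log2 fold change 4.73, SE 0.72, adjusted p = 0.000255). Irx1 and Esrrb, factors of the loop of Henle and distal segments, fell 16.3-fold and 6.74-fold, from 2.94, 4.35 and 4.82 CPM to 0.262, 0.113 and 0.358 CPM and from 4.62, 9.44 and 9.27 CPM to 1.31, 1.28 and 0.875 CPM (adjusted p = 0.00129 and 0.00680). Hnf4a, which drives proximal tubule genes, was not called. It measured 222, 194 and 214 CPM in untreated kidney and 100.1, 113 and 121 CPM at day 1 (adjusted p = 0.0861), and the day 1 values lay below all untreated values.

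Cell type markers were summed in every library to describe the tissue. Over all genes tested, 5.09% were higher and 5.56% were lower, and the counts of called markers stand beside those shares. Proximal tubule markers summed to 13700 to 15400 CPM in untreated kidney and 2780 to 3210 CPM at day 1, with 17 of 23 lower and 0 higher. Thick ascending limb and distal tubule markers summed to 2210 to 2860 CPM and 455 to 692 CPM, with 11 of 15 lower. Collecting duct markers summed to 358 to 488 CPM and 86.6 to 156 CPM, with 7 of 16 lower, or 4 without day 1 replicate 2. Podocyte markers summed to 187 to 276 CPM and 127 to 164 CPM, with 2 of 12 lower. The median log2 fold change of those 12 was -0.08, so most podocyte markers did not follow the sum. The groups did not overlap in any of these 4 sums, and each had an exact two-sided permutation p of 0.1. Calb1, the calcium buffer calbindin-D28k of the distal tubule, fell 13.5-fold, from 150.3, 113 and 146 CPM to 10.4, 9.49 and 10.4 CPM (log2 fold change -3.76, SE 0.42, adjusted p = 1.28e-05). Clic5, a chloride channel protein of podocyte foot processes, fell 3.36-fold, from 68.3, 94.6 and 80.5 CPM to 24.5, 18.7 and 29.2 CPM (adjusted p = 0.00164). The gene Clic5 alone made up a large part of the fall in the podocyte sum.

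Of 19 macrophage and monocyte markers tested, 2 were higher and 1 lower (15.8% called, against 10.7% of all genes tested). They summed to 32.8 to 62.3 CPM in untreated kidney and 66.0 to 112 CPM at day 1. These sums did not overlap (exact two-sided permutation p = 0.1), but the gene Cd14 alone made up a large share of the day 1 sums. With Cd14 taken out the sums overlap, so the other markers as a set did not separate the groups. The higher genes were Cd14, the lipopolysaccharide co-receptor, and Itgam, an integrin of myeloid cells. Cd14 measured 0.598, 1.59 and 0.439 CPM in untreated kidney and 48.1, 34.1 and 51.5 CPM at day 1 (log2 fold change 5.57, or 6.40 without untreated replicate 2, adjusted p = 6.39e-05 with all libraries), and Itgam 0.326, 0.238 and 0.501 CPM and 6.30, 2.25 and 2.90 CPM (adjusted p = 0.00130). Csf1r, the receptor that macrophages need to survive, fell 4.02-fold, from 17.0, 20.3 and 33.8 CPM to 4.94, 4.72 and 7.95 CPM (adjusted p = 0.00226), and Adgre1, the macrophage antigen F4/80, was not called at 0.381, 0.737 and 1.57 CPM and 0.262, 0.270 and 0.438 CPM (adjusted p = 0.138). Neutrophil markers summed to 6.02 to 8.37 CPM and 7.87 to 10.3 CPM over the 6 of 17 that could be tested, with a median log2 fold change of 0.64. Of these, edgeR called none, with 1 at an unadjusted p under 0.05, while DESeq2 called 1 higher. Elane and Ngp, granule proteins of neutrophils, had 0 reads in all 6 libraries. Both were picked after their values were seen and do not stand for the other neutrophil markers. The part of these cells in the higher cytokine and acute phase genes was not tested.

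Endothelial markers summed to 124 to 217 CPM in untreated kidney and 72.6 to 83.2 CPM at day 1, with 4 of 16 lower, or 2 in each fit without untreated replicate 1, untreated replicate 2, day 1 replicate 1 or day 1 replicate 2. The share called was 25% in the endothelial list and 25% in the stromal list, against 10.7% of all genes tested. Stromal markers summed to 107 to 125 CPM and 109 to 161 CPM, with 2 higher and 2 lower of 16. The lower count was 1, 1 and 0 without untreated replicate 1, day 1 replicate 1 and day 1 replicate 2. The higher ones were the fibrillar collagen genes Col1a1, at 3.21, 3.66 and 1.06 CPM and 25.5, 20.2 and 27.3 CPM, and Col3a1, at 6.74, 5.66 and 7.45 CPM and 31.7, 12.96 and 23.3 CPM (adjusted p = 0.00276 and 0.00685). Cdh11 and Mrc1, named in the series title as markers of kidney fibrosis, were not called at day 1. Cdh11, a cadherin of mesenchymal cells, measured 3.64, 1.14 and 4.01 CPM in untreated kidney and 2.19, 1.73 and 2.17 CPM at day 1, and Mrc1, the macrophage mannose receptor, 1.30, 1.28 and 2.94 CPM and 0.569, 0.945 and 1.99 CPM (adjusted p = 0.683 and 0.541), with overlapping groups in both.

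**Figure D4:**
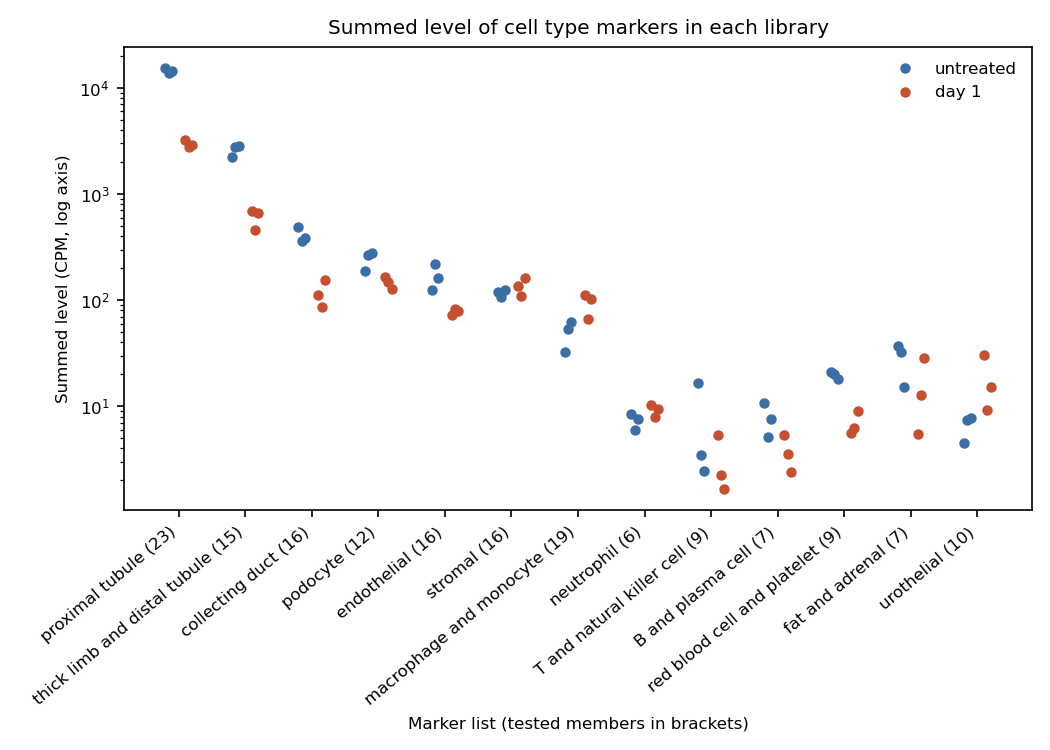
Summed CPM of the tested markers of each cell type (log axis) in each library, with untreated libraries in blue and day 1 libraries in red. Proximal tubule sums fall from 13700 to 15400 CPM to 2780 to 3210 CPM, while neutrophil and lymphocyte sums stay under 20 CPM in all 6 libraries.

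Day 1 was followed by a sample set at day 2, and edgeR called few genes between those days. Gene reads numbered 45520320, 8677197 and 24579269 in the day 2 libraries. Replicate 2 was the shallowest of the 18 libraries and had the fewest genes with a read, 17033. Of the 16824 genes, 10 (0.0594%) differed at an adjusted p under 0.05, and 2252 at an unadjusted p under 0.05. This comparison shares the day 1 libraries with the one above, so each is given by its own values. Of the 10, 3 had fallen at day 1 and were lower still at day 2. Dnase1, a secreted nuclease, measured 426, 298 and 336 CPM in untreated kidney, 48.4, 95.2 and 73.7 CPM at day 1 and 4.12, 4.73 and 10.99 CPM at day 2, a day 2 minus day 1 log2 difference of -3.43 (SE 0.45, adjusted p = 0.00585). Pzp, a protease-trapping macroglobulin, measured 78.9, 109 and 64.6, 26.2, 24.4 and 18.9, and 1.83, 2.20 and 3.08 CPM at those times (difference -3.28, adjusted p = 0.0137). Cyp2d9, a cytochrome P450 with close copies, measured 34.2, 28.5 and 43.2, 7.48, 1.28 and 4.12, and 0.285, 0.338 and 0.231 CPM (difference -3.95, adjusted p = 0.0370).

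Of the 7 genes higher at day 2 than at day 1, 5 act in cell division. Mki67, the proliferation antigen Ki-67, measured 4.404, 6.11 and 1.57 CPM in untreated kidney, 15.4, 7.90 and 13.3 CPM at day 1 and 58.2, 107 and 69.5 CPM at day 2 (difference 2.68, SE 0.41, adjusted p = 0.0191). Knl1, a kinetochore scaffold, measured 4.90, 2.95 and 3.14 CPM at day 1 and 13.3, 25.7 and 24.1 CPM at day 2, and Foxm1, a mitotic transcription factor, 3.32, 2.79 and 1.65 CPM and 53.5, 30.2 and 6.69 CPM (adjusted p = 0.0383 and 0.0480). Slc5a12 was the gene that had fallen at day 1 and was higher at day 2, with 26.8, 10.1 and 25.3 CPM at day 1 and 126, 152 and 53.3 CPM at day 2, against 328, 299 and 352 CPM in untreated kidney (difference 2.41, SE 0.42, adjusted p = 0.0370). For the motor protein gene Cenpe and the transcription factor gene Zfhx3, day 2 replicate 2 was far above the other day 2 libraries, with 5.61, 1113 and 21.1 CPM and 24.5, 498 and 111 CPM at day 2. The count of genes that differed between the days was 158, 1 and 130 without day 2 replicates 1, 2 and 3, and 1 and 6 without day 1 replicates 1 and 2. DESeq2 gave 511, the fit with all genes that had a read 248, and a fit of these 6 libraries alone gave 0, with 1422 at an unadjusted p under 0.05.

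**Figure D5:**
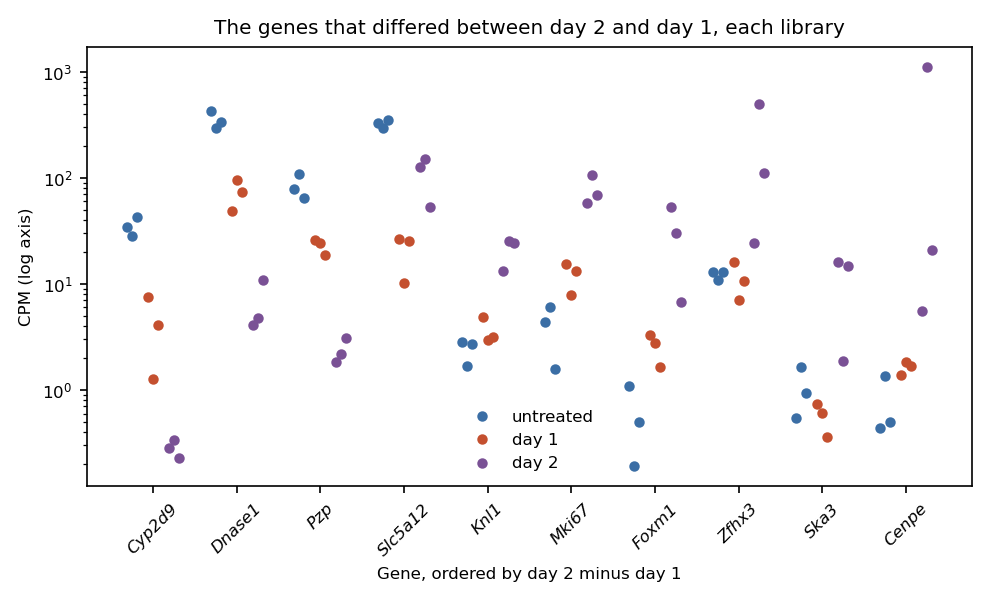
CPM on a log axis in each untreated (blue), day 1 (red) and day 2 (purple) library for the 10 genes that differed between day 2 and day 1, ordered by that difference. Cyp2d9, Dnase1 and Pzp step down at both times, Slc5a12 is lowest at day 1, and the day 2 points of Cenpe range from 5.61 to 1113 CPM.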

How the data were processed

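Per the labels' protocols, frozen kidneys were the source of TRIzol-purified RNA, of which 10 ng entered NuGEN single primer isothermal amplification. The submitters' processing notes name cutadapt, TopHat2 2.07, HTSeq and DESeq, and the build NCBIM37. Whether counting used strand is not given in the sources used here, so overlapping and antisense genes are uncertain. The deposited tables hold, in the unit count, raw reads per gene for 37991 identifiers plus 5 tallies of unassigned reads, which were left out and on average were 15.7% (no feature), 1.20% (ambiguous) and 21.7% (aligned to several places) of all tabulated reads in untreated kidney. The authors' normalized tables were not used. Symbols came from GENCODE M21 by identifier (32919 found, 5072 not), an annotation of a later build, so no coordinates are given for counted genes. Promoters came from RefSeq (GRCm38.p6).

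Counts of all 18 libraries entered 1 fit in edgeR 4.0.16 with TMM scaling, filterByExpr over 6 groups and the quasi-likelihood test, with the group as the only term and contrasts day 1 minus untreated and day 2 minus day 1. Gene tests are two-sided. Folds and log2 fold changes are fitted values with their standard error (SE); mean ± SD is not shown where every library is printed. The 50 gene lists, the families defined by symbol pattern and the members were chosen with earlier results of these data known, so lists are described by counts and medians with no list test. Named genes were the 15 largest changes in each direction with at least 10 CPM and no overlap, the 10 largest differences in CPM, up to 4 called members of each list in each direction, up to 10 genes detected in 1 group only, a panel of 16 genes, the most abundant genes, and genes called in opposite directions at day 1 and day 2. Outside that rule, the genes that differed between day 2 and day 1, the markers Adgre1, Elane and Ngp, and Aadat, Folr1 and 2 nuclear receptors were named after their values were seen. Some genes that the rule names are not reported here. The fit was tested on simulated counts. Alternatives changed the scaling, the filter, the tool (DESeq2 1.42.0, limma-voom 3.58.1), the libraries or a replicate block. R 4.3.3, Python 3.11.15, pandas 2.3.3, scipy 1.17.1, numpy 2.4.6 and matplotlib 3.10.9 were used.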

Additional observations from a re-analysis of the deposited data

Results flagged for a closer look

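For 10 genes the change from untreated kidney differed between day 2 and day 1 in edgeR's quasi-likelihood test of day 2 minus day 1 (adjusted p under 0.05). These are the genes of the report's day 2 comparison, and their counts without each library are given there. The log2 difference was 7.84 for Cenpe, 4.28 for Ska3, 4.22 for Zfhx3, 3.55 for Foxm1, 2.68 for Mki67, 2.52 for Knl1 and 2.41 for Slc5a12. It was -3.28 for Pzp, -3.43 for Dnase1 and -3.95 for Cyp2d9. Ska3, a protein that joins kinetochores to microtubules, measured 0.744, 0.607 and 0.358 CPM at day 1 and 16.04, 1.86 and 14.8 CPM at day 2, where replicate 2 was lowest (adjusted p = 0.0225). Foxm1 and Mki67 had also risen at day 1, with log2 fold changes of 2.18 and 1.58 (adjusted p = 0.0399 and 0.0156). For Foxm1 that call at day 1 was lost without untreated replicate 2 or 3 or day 1 replicate 1 or 2, with adjusted p of 0.174, 0.123, 0.117 and 0.0942.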

How the results depend on the processing

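The count of 1792 genes at day 1 ran from 1164 to 1379 over the fits that left out 1 library, with 482 to 713 higher and 537 to 764 lower, against 857 and 935. DESeq2 gave 1457 lower genes, 2593 in all, of which 1772 were among the 1792. Scaling to library totals shifted the median of all genes by 0.14 on the log2 scale and gave 885 higher of 1557. For day 2 against day 1, the count of 10 was 248 with all genes that had a read, 23 with at least 10 reads in every library of 1 group, 511 with DESeq2, 0 with only the 6 libraries compared, and 1 to 158 when 1 library was left out. None of the 246 named genes that were called changed direction under the alternatives run. Among all 1792 called genes, 1 did when untreated replicate 1 was left out, 1 when untreated replicate 2 was, and 2 when day 1 replicate 1 was. The cause of these changes was not tested. Fitting the replicate number as a block gave 1571 genes at day 1 (736 higher) and 2 for day 2 against day 1. Deviations from group means correlated at -0.0076, -0.014 and -0.018 between untreated and day 1 libraries of the same number. Between libraries of different numbers the correlations ran from -0.010 to 0.028. No shared deviation by number was seen, but the labels do not say what the numbers mean. Whether they mark a batch was not tested. Of the 246 named genes called, DESeq2 kept 245, limma-voom 220, the block 228, and 170 were called in all 6 fits without a library. With 3 libraries a group, genes that were not called may still have changed.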

Other observations

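Of 14130 protein-coding genes tested, 813 were higher and 867 lower (11.9% called, against 10.7% of all genes tested). Long intergenic noncoding RNAs gave 3 higher and 10 lower of 212 (6.13% called), antisense genes 6 and 12 of 503 (3.58%), and processed pseudogenes 8 and 8 of 468 (3.42%). These shares were below that of all genes, and scarce genes were called less often in general. Leaving out 1 library at a time gave 468 to 673 higher and 501 to 695 lower protein-coding genes, 2 to 4 higher and 3 to 8 lower long intergenic RNAs, 1 to 7 higher and 9 to 13 lower antisense genes and 1 to 7 higher and 2 to 8 lower processed pseudogenes. Outside the mitochondrial genome, protein-coding genes held 83.7% ± 1.10 (SD, n = 3) of reads in untreated kidney and 78.7% ± 0.706 at day 1, and long noncoding genes 9.75% ± 3.07 and 15.1% ± 1.57. Neither pair of groups overlapped (exact two-sided permutation p = 0.1 for each, the smallest 3 against 3 can give). For long noncoding genes the highest untreated share, 13.2%, was close to the lowest day 1 share, 13.4%. Malat1, an abundant nuclear noncoding RNA, was not called at 27460, 23440 and 42390 CPM and 57410, 49690 and 43740 CPM (adjusted p = 0.167). The 212 long intergenic RNAs summed to 24200 to 43200 CPM and 44400 to 58400 CPM, most of it Malat1. Their median log2 fold change was -0.14, so the higher noncoding share was largely that of this 1 gene.

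Some large families are given here beside the 10.7% called over all genes tested. Zinc finger genes with Zfp symbols gave 5 higher and 7 lower of 344 (3.49% called), and RAB vesicle-traffic genes 1 and 4 of 64 (7.81%). Potassium channels gave 1 higher and 7 lower of 50 (16% called), and nuclear receptors 0 and 5 of 40 (12.5%), the lower ones including Esrrb, Vdr, Nr0b2 and Nr1h4, of which the last 2 were named after their values were seen. In fits that left out 1 library the lower counts were 1 to 4 for Zfp genes, 1 to 2 for RAB genes and 2 to 4 for nuclear receptors, the last lowest without day 1 replicate 2.

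Some named genes rested on 1 library. Rap2b, a small GTPase, measured 0.163, 0.0951 and 0.689 CPM in untreated kidney and 45.5, 2.00 and 0.795 CPM at day 1, and its log2 fold change of 5.78 was 2.22 without day 1 replicate 1 (adjusted p = 0.134) and 6.99 without untreated replicate 3. Trac, the T cell receptor alpha constant region, measured 14.2, 0.856 and 0.125 CPM in untreated kidney and 0, 0 and 0.0398 CPM at day 1, and its log2 fold change of -7.96 was -4.69 without untreated replicate 1 (adjusted p = 0.119), -8.54 without untreated replicate 3 and -10.15 without day 1 replicate 3.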
